A study of Mus musculus with 6 samples.

Results

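The 10 genes described here are genes of liver glucose output and of the glucocorticoid response measured in whole liver of the inbred mouse strain C57BL/6. They are Pck1, Fbp1, G6pc, Igfbp1, Irs2, Tsc22d3, Fkbp5, Sgk1, Klf9 and Klf15, chosen by name for their roles and matched by symbol. Earlier results of these data were known when they were chosen. All 10 were among the 8390 genes of the deposited table and passed the filter on low values. In the LV group, 3 mice received 3e8 transducing units of a lentiviral vector by intravenous injection, 4 h before the mice were killed. The comparison group was 3 untreated mice, with no injection. A lentiviral vector is a particle derived from a retrovirus that carries its cargo into cells without replicating. Injection, handling and vector differ together between the groups and cannot be told apart. The sex, the age, the feeding state and the hour at which each liver was taken are unknown here.

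Gluconeogenesis is the making of glucose from lactate, amino acids and glycerol, and the liver is its main site in fasting. Glucagon acts through cAMP to raise its enzymes, insulin lowers them, and glucocorticoids, the stress steroids of the adrenal gland, favour them. The glucocorticoid receptor binds DNA and induces a set of genes in many tissues, among them several that restrain inflammation and the receptor itself.

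The short control elements known for these genes can be read in the bases before their start sites. Below are the 250 bases before the RefSeq start of 5 of the genes (assembly GRCm38.p6, gene strand, 5′ to 3′), chosen because they carry a searched motif and belong to the glucose output, insulin and glucocorticoid groups. Capitals mark a motif found on either strand: TGACG, part of the cAMP response element, AGAACA, one arm of the glucocorticoid response element, AGAACA followed by 3 free bases and TGTTCT, the whole element, CAAAACA, an insulin response sequence, TATAAA, the TATA box, TGACGTCA, the whole cAMP element, TGTTTAC, a forkhead site, and a pair of GAAA spaced by 2 free bases, an interferon response sequence. TGACG lies within TGACGTCA and AGAACA within the whole glucocorticoid element.
Pck1, chr2:173152823-173153072: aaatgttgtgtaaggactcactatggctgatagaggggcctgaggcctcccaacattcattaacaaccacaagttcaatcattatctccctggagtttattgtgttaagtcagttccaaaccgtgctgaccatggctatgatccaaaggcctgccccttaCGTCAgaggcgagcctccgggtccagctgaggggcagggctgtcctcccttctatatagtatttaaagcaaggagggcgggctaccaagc
G6pc, chr11:101367466-101367715: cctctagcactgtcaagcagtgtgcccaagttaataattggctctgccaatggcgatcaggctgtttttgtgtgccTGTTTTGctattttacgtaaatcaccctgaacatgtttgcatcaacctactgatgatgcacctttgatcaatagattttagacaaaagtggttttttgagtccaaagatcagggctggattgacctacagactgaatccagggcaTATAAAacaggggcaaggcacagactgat
Igfbp1, chr11:7197537-7197786: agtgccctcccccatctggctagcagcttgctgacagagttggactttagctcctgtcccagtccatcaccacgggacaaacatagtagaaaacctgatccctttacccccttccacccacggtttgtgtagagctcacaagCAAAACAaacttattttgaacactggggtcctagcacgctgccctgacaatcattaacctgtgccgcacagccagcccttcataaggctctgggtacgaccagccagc
Tsc22d3, chrX:140600523-140600772: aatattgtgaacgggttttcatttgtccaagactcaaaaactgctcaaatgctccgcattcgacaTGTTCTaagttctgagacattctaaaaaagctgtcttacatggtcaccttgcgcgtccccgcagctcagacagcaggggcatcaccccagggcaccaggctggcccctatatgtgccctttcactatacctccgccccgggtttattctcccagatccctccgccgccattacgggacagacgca
Sgk1, chr10:21993640-21993889: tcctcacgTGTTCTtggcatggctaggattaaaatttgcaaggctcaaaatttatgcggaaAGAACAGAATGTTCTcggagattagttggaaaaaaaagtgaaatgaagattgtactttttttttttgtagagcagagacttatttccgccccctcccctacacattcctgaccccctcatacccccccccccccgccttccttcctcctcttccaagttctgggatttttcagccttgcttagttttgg

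Pck1, G6pc, Igfbp1 and Sgk1 lie on the + strand and Tsc22d3 on the - strand. RefSeq lists 3 starts for Tsc22d3 and 6 for Sgk1, and the deposited table has 1 row for each gene, so the reads were not split between starts. The 10 genes have 17 such windows. CAAAACA was in 3 of the 17, those of G6pc, Igfbp1 and Irs2, against 5.56% of 32851 windows of this length. TGACG was in 5 of the 17, 1 each of Pck1, Tsc22d3, Sgk1, Klf9 and Klf15, against 17.8% of all windows. AGAACA was in 4 of the 17, 1 of Tsc22d3 and 3 of Sgk1, against 16.1% of all windows, and the whole glucocorticoid element in 1 Sgk1 window and 3 of all 32851 windows. The matches are letters only. They show no binding of a factor, and a window without a match says nothing of other stretches.

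The deposited values are whole numbers in a unit that no label or header names, and they are quoted as deposited. A fold change is the difference of mean log2(value + 1), LV minus untreated, with its standard error (SE, n = 3 in each group), and understates changes of low values. A gene counts as called where limma, fitted to 8386 genes, gave it an adjusted p (Benjamini-Hochberg) under 0.05. The sums of the 6 libraries ranged from 497295 to 526009 and are not read totals, so depth is unknown. LV replicate 3 and untreated replicate 2 stood apart from the other libraries. Elovl3, a male-biased fatty acid elongase, had 169 and 159 in them and at most 4 in the others, and Cyp2b9, a female-biased P450, had 8 and 5 against at least 121. Ddx3y, a Y-linked gene, was listed at 0 in untreated replicate 3, where Elovl3 had 2 and Cyp2b9 149. Its values in the other libraries are not given here, so this value does not set that liver apart from them. Nothing says that the replicates came from separate experiments. The p-values thus rest on the scatter among these 6 livers, which may mix differences between mice with technical ones. Hepatocyte markers were high in all 6 libraries, as the tissue label says: the 11 measured ones summed to between 67704 and 77681 in LV livers and between 72967 and 97286 in untreated livers. Alb made up most of each sum, at 41700 to 54529 in LV livers and 49014 to 69728 in untreated livers. Of the 11 fold changes 6 were positive and 5 negative (median log2 fold change 0.02), and 0 were called.

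The 10 genes did not all move in the same direction, and no test of them as a set was made. Tsc22d3 was lower in LV livers and was the single call among them, beside 4.63% of all tested genes called (3.76% higher, 0.87% lower). In 4 of the 10 genes, 40.0%, the groups did not overlap: G6pc, Tsc22d3 and Klf15 lay lower in every LV library and Fkbp5 higher. Of all tested genes, 19.7% had groups that did not overlap (8.65% with LV higher, 11% with LV lower). The median log2 fold change was -0.45 over the 10 genes and -0.07 over all genes. At an unadjusted p under 0.05 stood 4 of the 10, the same 4 whose groups did not overlap, against 19.5% of all genes. Because the 10 were chosen with earlier results of these data known, their shares beside those of all genes are a description only. Of the fold changes 8 were negative, and 2, those of Pck1 and Fkbp5, were positive; 58.1% of all genes were negative.

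**Figure D1:**
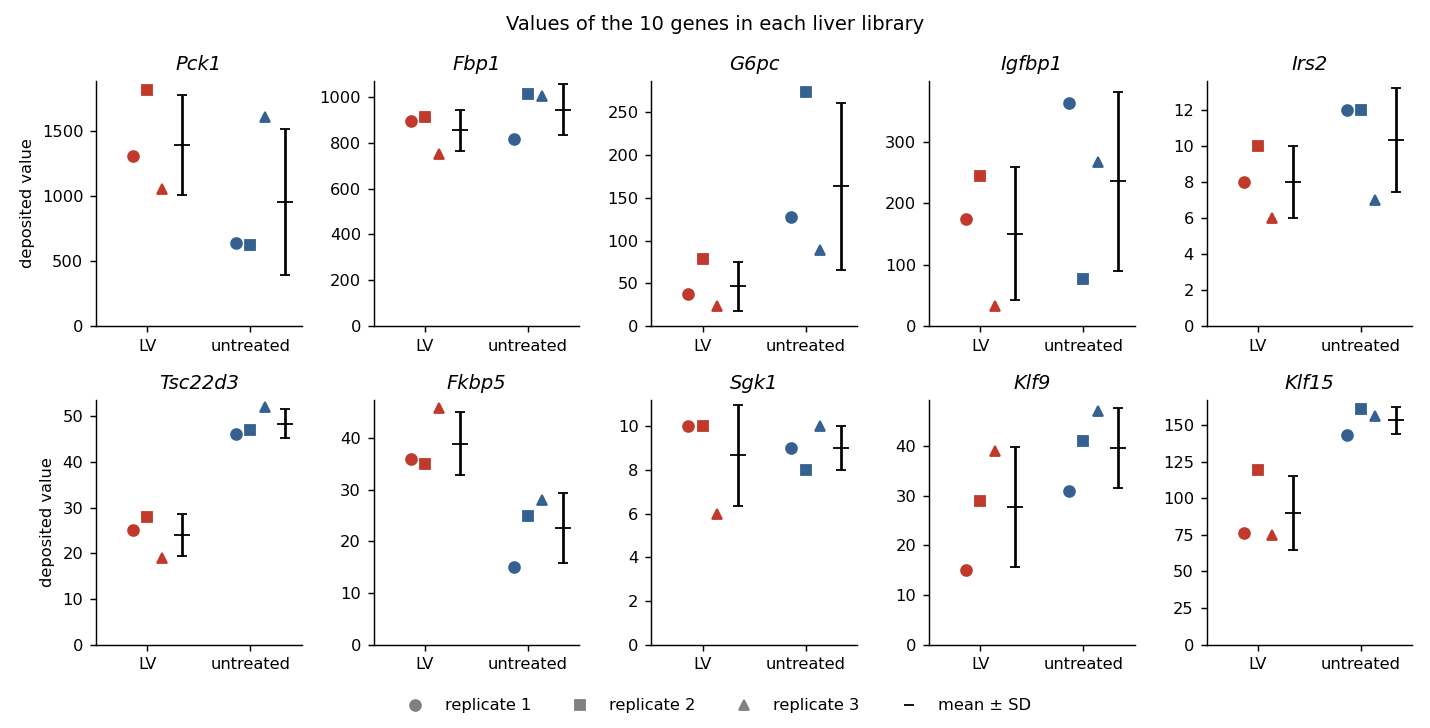
Deposited value (vertical axes, from 0, one scale per gene) of the 10 genes in LV and untreated livers; symbols are replicates and bars the mean ± SD (n = 3). Tsc22d3 lies at 19 to 28 in LV livers and 46 to 52 in untreated livers, whereas Igfbp1 spans 33 to 245 and 77 to 363.

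None of the gluconeogenic enzymes Pck1, Fbp1 and G6pc passed the threshold. Pck1, cytosolic phosphoenolpyruvate carboxykinase, which commits carbon to glucose synthesis, had values of 1308, 1810 and 1054 in LV livers and 636, 623 and 1601 in untreated livers. All 3 LV livers were above 2 of the untreated ones, and untreated replicate 3 lay within the LV range. The log2 fold change was 0.66 ± 0.44 (SE; 95% interval -0.44 to 1.75; limma adjusted p = 0.458), an interval that holds both no change and a 3.37-fold higher level. With 1 library left out it ranged from 0.43, without untreated replicate 2, to 1.11, without untreated replicate 3 (adjusted p = 0.677 and 0.167).

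G6pc, the catalytic subunit of glucose-6-phosphatase, carries out the last step, the release of free glucose. It had values of 38, 78 and 23 in LV livers and 128, 274 and 89 in untreated livers. The groups did not overlap, and the highest LV value was close to the lowest untreated one. The log2 fold change was -1.81 ± 0.59 (95% interval -3.29 to -0.33; limma adjusted p = 0.182), the largest in size of the 10 and larger than that of 98.2% of all tested genes. LV replicate 3 had the lowest value and untreated replicate 2 the highest. Without these libraries the log2 fold change was -0.96 (adjusted p = 0.389), and leaving out the extreme values shrinks it whatever the reason. The remaining LV values, 38 and 78, still lay below the remaining untreated ones, 128 and 89. The same libraries stood apart in male-biased genes, and a link to G6pc was not tested.

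Fbp1, fructose-1,6-bisphosphatase, the enzyme of the step between the other two, was not called. It had 896, 913 and 753 in LV livers and 816, 1013 and 1002 in untreated livers. The groups overlapped, and the log2 fold change was -0.14 ± 0.14 (limma adjusted p = 0.605). Its interval of -0.49 to 0.20 leaves room for at most a modest change in either direction.

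The ratio of Pck1 to G6pc within a library, a comparison chosen after the values were seen and therefore given without a test, separated the groups. It was 34.4, 23.2 and 45.8 in LV livers and 4.97, 2.27 and 18.0 in untreated livers. The lowest LV ratio thus lay above the highest untreated one, untreated replicate 3, which had the highest Pck1 of its group. A ratio shows unequal change only, and says nothing of which gene changed.

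**Figure D2:**
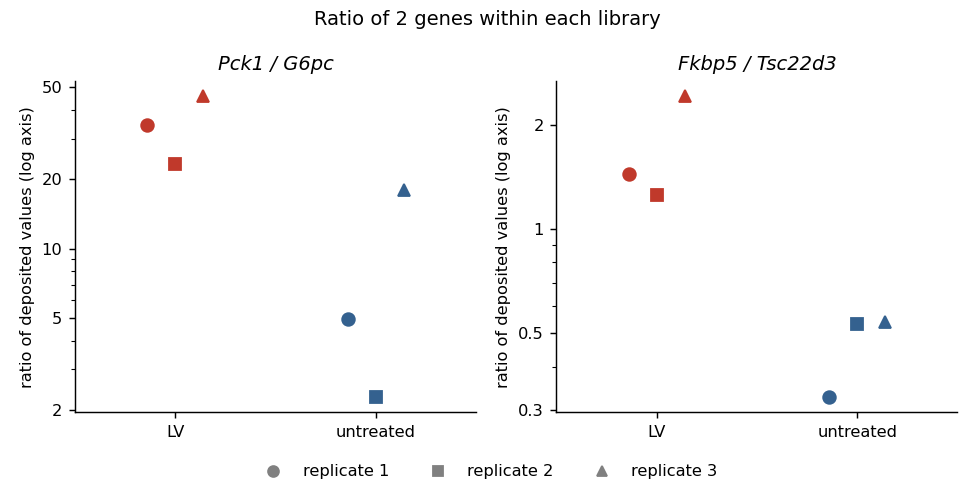
Ratio of the deposited values of 2 genes within each library (log axes), Pck1 over G6pc on the left and Fkbp5 over Tsc22d3 on the right, for LV and untreated livers; symbols are replicates. The LV ratios of 23.2 to 45.8 and 1.25 to 2.42 lie above the untreated ratios of 2.27 to 18.0 and 0.326 to 0.538.

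Other enzymes of the pathway did not pass. Of 9 measured genes of gluconeogenesis and glucose output, Pck1, Fbp1 and G6pc among them, 0 were called in limma and 1, G6pc, had an unadjusted p under 0.05 (median log2 fold change -0.14). Slc37a4, which carries glucose-6-phosphate into the endoplasmic reticulum for G6pc, had a log2 fold change of -0.32 ± 0.29, with 81, 151 and 150 in LV livers and 134, 185 and 145 in untreated livers. Pcx, pyruvate carboxylase, the entry step, had a log2 fold change of -0.05 ± 0.14. Of 15 measured glycolytic genes, 0 were called, with 1 higher and 1 lower at an unadjusted p under 0.05 (median -0.06). Of 13 glycogen genes 0 were called and 1 was lower at an unadjusted p under 0.05 (Pygl, liver glycogen phosphorylase, -0.60 ± 0.20, adjusted p = 0.194); 11 of the 13 fold changes were negative (median -0.30). Of 17 genes that break down amino acids, 0 were called and 1, Tat, had an unadjusted p under 0.05 (median -0.03).

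Regulators upstream of the enzymes showed no call. Of 21 measured transcriptional regulators of gluconeogenesis, 0 were called in limma, and 2 were higher and 4 lower at an unadjusted p under 0.05. Ppargc1a, the fasting-induced coactivator of Pck1 and G6pc, was low, at 2 to 3 in LV livers and 2 to 4 in untreated livers. Its relative Ppargc1b had 1, 2 and 4 in LV livers and 7, 9 and 11 in untreated livers (-1.67 ± 0.36, limma adjusted p = 0.0747); the groups did not overlap. Foxo1, the factor that insulin excludes from the nucleus, stood at -0.30 ± 0.16 on the log2 scale (adjusted p = 0.355). Cebpb, a factor of both the acute phase and Pck1 expression, had one of -0.04 ± 0.40 (adjusted p = 0.997). Of 15 genes of glucagon, cAMP and AMPK signalling, 0 were called, with 1 higher (Crem) and 2 lower (Adcy6, Prkaca) at an unadjusted p under 0.05. Rounding bears on the low genes, whose steps of 1 are large against their level.

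The genes most directly tied to insulin varied between livers of the same group. Igfbp1, a secreted protein that binds insulin-like growth factors and that insulin represses, had 174, 245 and 33 in LV livers and 363, 77 and 268 in untreated livers. The groups overlapped widely. The low library of each group was LV replicate 3 and untreated replicate 2. The log2 fold change of -0.79 ± 0.95 (limma adjusted p = 0.681) had an interval of -3.18 to 1.60, and it was 0.075 without LV replicate 3. Its spread between replicates on the log2 scale, an SD of 1.36, was larger than that of 99.4% of the 6780 genes with a mean of at least 5.

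**Figure D3:**
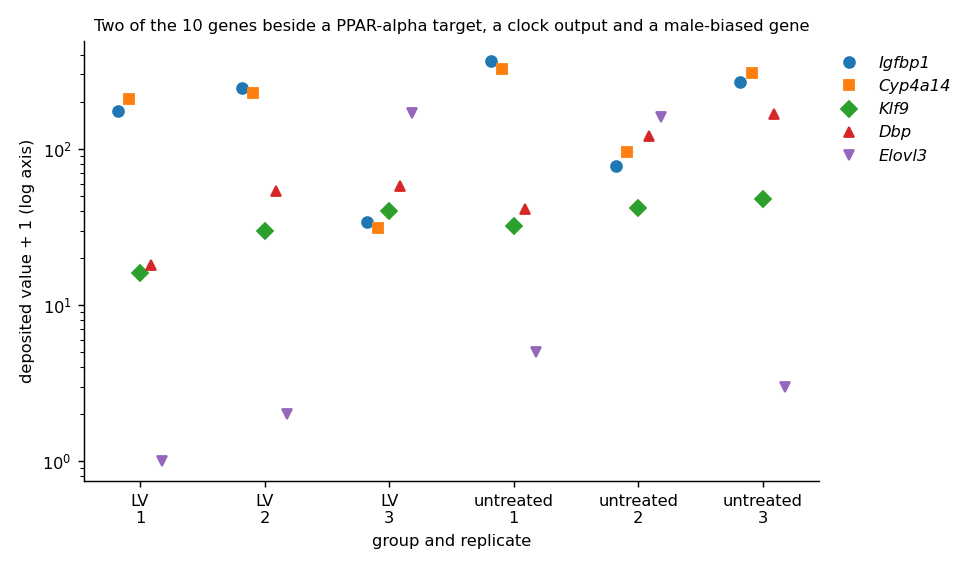
Deposited value + 1 (log axis) in each LV and untreated library for Igfbp1 and Klf9, beside Cyp4a14, a PPAR-alpha target, Dbp, a clock output gene, and Elovl3, a male-biased gene. Igfbp1 and Cyp4a14 are low in LV replicate 3 and untreated replicate 2, where Elovl3 is high.

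Irs2, an adaptor that passes the signal of the insulin receptor on, had 8, 10 and 6 in LV livers and 12, 12 and 7 in untreated livers. The groups overlapped through untreated replicate 3, and the log2 fold change was -0.32 ± 0.27 (limma adjusted p = 0.558). Of 24 measured genes of insulin signalling, Irs2 included, 0 were called, with 1 higher and 2 lower at an unadjusted p under 0.05 (median -0.18). The higher one was Ptpn1, a phosphatase that acts on the insulin receptor, with 22, 20 and 11 in LV and 9 in each untreated liver (0.85 ± 0.26, adjusted p = 0.161). The lower ones were Irs1 (-0.67 ± 0.21) and Trib3 (-1.15 ± 0.35). Insr, the receptor, had a log2 fold change of 0.22 ± 0.26. Of 13 genes of the IGF axis, Igfbp1 included, 0 were called and 3 were lower at an unadjusted p under 0.05. These were Igf1, the growth factor itself (-0.59 ± 0.22, adjusted p = 0.225), Igfals, its carrier subunit in blood (-0.39 ± 0.10, adjusted p = 0.1), and Igfbp3 (-0.91 ± 0.35, adjusted p = 0.237).

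Of the glucocorticoid-induced genes among the 10, Tsc22d3, Fkbp5, Sgk1, Klf9 and Klf15, 1 was called. Tsc22d3, also called GILZ, is a leucine zipper protein that glucocorticoids induce and that dampens NF-kB and AP-1. It had 25, 28 and 19 in LV livers and 46, 47 and 52 in untreated livers. Every LV value lay well below every untreated one, and the untreated livers were close together. It fell by 1.00 on the log2 scale (SE 0.16, 95% interval -1.39 to -0.60, limma adjusted p = 0.0303), to 0.501 times the untreated level. The call was lost, with a similar size, when LV replicate 1 (adjusted p = 0.111), LV replicate 2 (0.0606) or untreated replicate 1, 2 or 3 (0.111, 0.0964 and 0.123) was left out, and it held without LV replicate 3 (0.0266). Without LV replicate 3 and untreated replicate 2 together the log2 fold change was -0.86 (adjusted p = 0.0778).

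Fkbp5, a co-chaperone that lowers the receptor's affinity for its ligand, had higher values in LV livers but did not pass. It had 36, 35 and 46 in LV livers and 15, 25 and 28 in untreated livers. The groups did not overlap, and the log2 fold change was 0.79 ± 0.26 (95% interval 0.15 to 1.43; limma adjusted p = 0.178). The ratio of Fkbp5 to Tsc22d3 within a library, also chosen after the values were seen, was 1.44, 1.25 and 2.42 in LV livers and 0.326, 0.532 and 0.538 in untreated livers. The ratio was thus above 1 in each LV liver and below 1 in each untreated liver. No test was made of it.

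Klf15, a zinc finger factor that glucocorticoids induce and that in mouse liver promotes amino acid breakdown and gluconeogenesis, had 76, 119 and 75 in LV livers and 143, 161 and 156 in untreated livers. All LV values were lower. The log2 fold change was -0.79 ± 0.20 (95% interval -1.30 to -0.29; limma adjusted p = 0.105). LV replicate 2 was the highest of its group, and without it the value was -1.01 (adjusted p = 0.0252). Klf9, a related factor that glucocorticoids and the clock regulate, had 15, 29 and 39 in LV livers and 31, 41 and 47 in untreated livers. The groups overlapped (-0.58 ± 0.37, adjusted p = 0.437), and without LV replicate 1 the log2 fold change was -0.21 (adjusted p = 0.752). Of 9 measured Kruppel-like factors, both included, 0 were called, with 1 higher (Klf6) and 2 lower (Klf3, Klf15) at an unadjusted p under 0.05. Klf3 had 9, 13 and 8 in LV livers and 15, 16 and 19 in untreated livers.

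Sgk1, a kinase that glucocorticoids and cell stress induce, showed the smallest fold change of the 10. It had 10, 10 and 6 in LV livers and 9, 8 and 10 in untreated livers. The log2 fold change was -0.08 ± 0.21 (limma adjusted p = 0.870), and the interval of -0.60 to 0.45 corresponds to 0.659 to 1.37 times the untreated level. LV replicate 3 was the low one, and without it the value was 0.14. Of 7 measured genes of the TSC22 domain and SGK families, 1 was called, Tsc22d3. Of 9 measured regulators and substrates of Sgk1, 0 were called and 1 was higher at an unadjusted p under 0.05, Nedd4l, a ubiquitin ligase that the kinase phosphorylates (0.67 ± 0.22, adjusted p = 0.191).

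**Figure D4:**
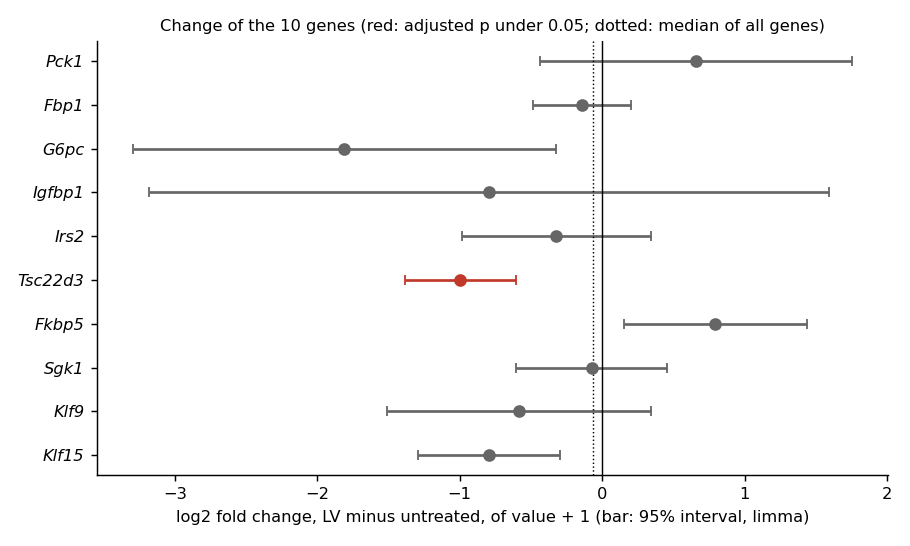
Log2 fold change of value + 1, LV minus untreated, of the 10 genes with its 95% interval from limma (n = 3 in each group). Tsc22d3, in red, is the one with an adjusted p under 0.05; the intervals of G6pc, Fkbp5 and Klf15 also leave out 0, before adjustment over all genes.

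Among glucocorticoid-induced genes at large, changes ran in both directions. Of 24 measured genes of this list, 5 of the 10 genes included, 1 was called higher (Mt2), 1 lower (Tsc22d3) and 22 were not called. At an unadjusted p under 0.05, 4 were higher and 5 lower, and the median log2 fold change was -0.24. Mt2, a metallothionein that metals, cytokines and glucocorticoids induce, had 2385, 1355 and 594 in LV livers and 51, 31 and 133 in untreated livers. It rose by 4.36 ± 0.72 on the log2 scale (limma adjusted p = 0.0362). Of the 6 fits without 1 library, the one without LV replicate 3 kept Mt2 called; the adjusted p ranged from 0.045 to 0.158. Mt1, its neighbour in the same family, had 3471, 2267 and 1372 in LV livers and 207, 190 and 579 in untreated livers (2.96 ± 0.56, adjusted p = 0.0506). Cdkn1a, the cell cycle inhibitor p21, had 8, 11 and 6 in LV livers and 5, 1 and 2 in untreated livers (1.46 ± 0.44, adjusted p = 0.156).

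Lower values stood beside these. Tat, tyrosine aminotransferase, a classical glucocorticoid-induced enzyme of liver, had 385, 380 and 260 in LV livers and 432, 504 and 510 in untreated livers (-0.51 ± 0.18, limma adjusted p = 0.214). The groups did not overlap. Angptl4, a secreted inhibitor of lipoprotein lipase, had 11, 36 and 26 in LV livers and 58, 59 and 124 in untreated livers (-1.74 ± 0.52, adjusted p = 0.15). Lpin1, a phosphatidate phosphatase, had 10, 20 and 24 in LV livers and 33, 47 and 76 in untreated livers (-1.48 ± 0.43, adjusted p = 0.142). Dusp1, a phosphatase of MAP kinases, had a log2 fold change of -0.75 ± 0.38 and Per1, a clock gene with a glucocorticoid response element, of -0.80 ± 0.64 (adjusted p = 0.339 and 0.546). Pdk4, Ddit4 and Cebpd, of the same list, had no row among the tested genes and so were not analysed here.

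**Figure D5:**
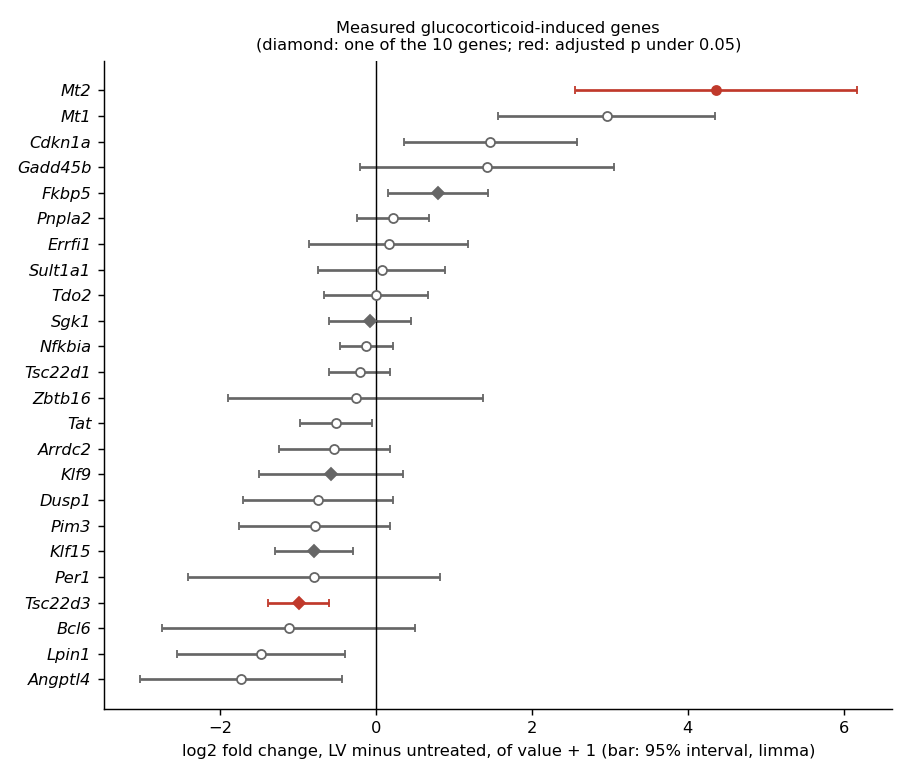
Log2 fold change of value + 1, LV minus untreated, of the 24 measured glucocorticoid-induced genes, with 95% intervals from limma; diamonds are among the 10 genes and red marks an adjusted p under 0.05. The called genes Mt2, at 4.36, and Tsc22d3 lie on opposite sides of 0.

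The receptor and its helpers showed no call. Nr3c1, the glucocorticoid receptor, had 16, 17 and 18 in LV livers and 15, 19 and 13 in untreated livers (0.13 ± 0.15, limma adjusted p = 0.679). Hsd11b1, the enzyme that reactivates glucocorticoids inside hepatocytes, had 319, 330 and 338 in LV livers and 388, 367 and 362 in untreated livers (-0.18 ± 0.07, adjusted p = 0.272). Of 19 measured genes for the receptor, its chaperones and cofactors, 0 were called and 2 were higher at an unadjusted p under 0.05, Fkbp5 and the heat shock gene Hspa1b (median -0.03). Fkbp4, the co-chaperone that acts against Fkbp5 on the receptor, had 62, 63 and 54 in LV livers and 91, 66 and 66 in untreated livers (-0.30 ± 0.16, adjusted p = 0.35).

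Values of feeding and clock genes are given beside these, and their part in the results was not tested. Of 15 measured markers of fasting and feeding, 0 were called in limma, 4 were lower at an unadjusted p under 0.05 and 13 had negative fold changes (median -0.56). Of 16 measured clock and clock output genes, 0 were called, 1 was higher and 7 lower at an unadjusted p under 0.05, and 14 had negative fold changes (median -0.80). Dbp, a clock output gene, had 17, 53 and 57 in LV livers and 40, 120 and 167 in untreated livers. Within each group its libraries stood in the same order as those of Klf9, a match picked after the values were seen. Lpin1, which is not on the clock list, shared this order. Nr1d1, a clock repressor, had 58, 90 and 95 in LV livers and 90, 101 and 71 in untreated livers. Its untreated libraries did not stand in that order.

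Markers of the other liver cells differed between libraries as well, and in bulk tissue fewer cells of a type and less RNA per cell cannot be told apart. The 10 measured macrophage and Kupffer cell markers summed to 135, 315 and 203 in LV and to 368, 248 and 344 in untreated livers, with 8 of 10 fold changes negative and 0 called (1 lower, Vsig4, at an unadjusted p under 0.05). The 11 sinusoidal endothelial markers summed to between 153 and 230 in LV and between 225 and 258 in untreated livers. They did not move together: 7 fold changes were negative, 4 positive and 0 called. The one marker at an unadjusted p under 0.05, Lyve1, was higher, with 10, 5 and 5 in LV livers and 3, 3 and 2 in untreated livers. The 9 stellate cell and fibroblast markers gave sums of 83 to 150 in LV livers and 86 to 126 in untreated livers, with 0 called. At an unadjusted p under 0.05, 1 of them was higher (Acta2) and 1 lower (Lrat). None of these markers was at 0 in any library. Of 14 leukocyte markers 1 was measured, Ptprc, at 1 to 3 in all libraries, and of 6 cholangiocyte markers 1, Spp1, at 20 to 31 in LV livers and 18 to 35 in untreated livers.

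Some livers often held the lowest or highest value of their group. Within the LV group, replicate 3 had the lowest value, ties included, in 8 of the 10 genes and replicate 2 the highest in 8, whereas over all tested genes these shares were 46.2% and 37.3%. LV replicate 2 also had the highest macrophage marker sum of its group. The SD between replicates on the log2 scale was 0.62 for Pck1, 0.84 for G6pc and 0.52 for Klf9, larger than that of 96.4%, 98.2% and 94.6% of genes with a mean of at least 5. For Tsc22d3 it was 0.21, near the middle (51.9%), and for Fbp1 0.16 (34.6%).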

How the data were processed

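Per the labels' protocols, liver RNA was isolated with QIAzol and sequencing libraries came from a TruSeq kit. The submitters' processing notes name mm9 as genome build; the aligner, counter and annotation are unknown here. The deposited whole numbers are handled as a score. They look scaled and rounded, since the 6 sums are nearly alike and, among genes with a mean of 2 to 5, the variance between replicates over the mean was 0.236 in LV and 0.218 in untreated libraries, below the 1 of plain counting. No count test or counting interval was therefore used.

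Each column matched 1 sample by its description. Genes reaching 1 in 3 or more libraries were kept (8386 of 8390). limma 3.58.1 (R 4.3.3), with an intensity trend, was fitted by group to log2(value + 1) of all of them. Tests were two-sided and adjusted by Benjamini-Hochberg over these genes. The fit was also run on simulated data, whose recovery is not given here, and a gene not called may still have changed. The 10 genes and all lists were chosen with earlier results of these data known. Named are the 10, called genes of the pathway lists, a set of 19 chosen by name (1 of them not reported here), the 3 nearest profiles of 5 genes, and clock and sex-biased genes beside results; other list genes are named after their values were seen. RefSeq synonyms (GRCm38.p6) matched 6 list symbols. The 15 alternatives left out libraries, added a block for replicate number, or changed the pseudocount (0.1), filter, scaling or trend.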

Additional observations from a re-analysis of the deposited data

How the results depend on the processing

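The total of 388 called genes was between 130 and 433 when 1 library was left out. Among the 10 genes, 0 to 1 were called when 1 library was left out and 0 when LV replicate 3 and untreated replicate 2 were both left out. Leaving out LV replicate 2 called Klf15 in place of Tsc22d3. Among 185 other genes of the pathway lists, where Mt2 alone was called, 0 to 6 were called when 1 library was left out (6 without LV replicate 3). There were 4 with genes of a mean of at least 5, 2 with quantile normalization, 4 with equal column totals, 3 with median-of-ratios scaling and 4 without LV replicate 3 and untreated replicate 2. Of 150 values of the 10 genes under 15 alternatives, 146 kept their direction. The exceptions were uncalled: Igfbp1 (0.075) and Sgk1 (0.14) without LV replicate 3, and Sgk1 (0.069) and Fbp1 (0.00036) without LV replicate 3 and untreated replicate 2. With 1 library left out, Igfbp1 ranged from -1.46 to 0.075 and Sgk1 from -0.18 to 0.14. The cause was not tested. The median of all genes shifted by less than 0.1 under every scaling tried.

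The replicate block, a term for the replicate number in the titles, left 156 genes called, 0 of the other pathway genes and 1 of the 10, G6pc (log2 fold change -1.81, limma adjusted p = 0.0234) in place of Tsc22d3 (0.153). Whether the numbers pair the samples is unknown here. Deviations from the group means correlated across genes at 0.28, -0.47 and -0.34 for replicates 1, 2 and 3. The highest correlation, 0.61, was between LV replicate 3 and untreated replicate 2, the libraries that stood apart. With 3 libraries in each group, these correlations cannot decide on pairing. Depth is unknown, and rounding to whole numbers limits Sgk1, Irs2 and other low genes.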

Other observations

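The genes of the table whose values followed single members most closely were named by distance, the root mean square difference of log2 deviations from the untreated mean over the 6 libraries, over the 6780 genes that averaged 5 or more. This is a description with no test, and values that the nearest genes share with a member follow from how they were chosen. For Igfbp1 the nearest was Cyp4a14, a fatty acid hydroxylase that PPAR-alpha induces, at 0.20. It had 209, 227 and 30 in LV livers and 325, 94 and 307 in untreated livers, and so shared the low values of LV replicate 3 and untreated replicate 2. Smoc2 (0.28) and Mvd, an enzyme of sterol synthesis (0.41), came next. For Pck1 the nearest was Vnn1, a pantetheinase, at 0.22, with 24, 29 and 18 in LV livers and 14, 13 and 30 in untreated livers. The next were 2010003K11Rik (0.31) and Hamp2, a hepcidin gene (0.35), with 913, 648 and 683 in LV livers and 343, 361 and 658 in untreated livers. All 3 shared the high value of untreated replicate 3.

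For Tsc22d3 the nearest genes were Ces3, a carboxylesterase (0.16), Dapk2, a kinase of cell death (0.19), and Tob1, an antiproliferative gene (0.20). Tob1 had 22, 35 and 18 in LV livers and 57, 53 and 51 in untreated livers. Their lower values in LV livers follow from how they were chosen. No gene lay nearer to G6pc than 0.54, the distance of Thrsp, a lipogenic gene with 131, 362 and 158 in LV livers and 462, 784 and 729 in untreated livers. Prss8 (0.61) and Arl4d (0.61) followed. Sgk1, whose group difference was small, lay nearest to Vamp3 (0.05), Wdr79 (0.07) and Jmjd6 (0.07).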
